A study of Mus musculus with 18 samples.

Results

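Mitochondrial ribosomal protein genes were followed in regulatory T cells (Tregs) that lacked CD25, the α-chain of the IL-2 receptor. The genes were taken by name, as every symbol that starts with *Mrpl* or *Mrps* and goes on with a number and at most 1 further letter. This gave 78 of the 50600 genes in the count table, and all 78 are called members here. RNA-seq covered 18 mice on the C57BL/6 background, 1 library per mouse. Thymic Tregs came from 5 Foxp3/RFP reporter mice with intact CD25 (WT) and 5 mice with floxed CD25 and Foxp3-YFP/Cre (CD25 KO), all aged 3 to 4 weeks. The thymic CD25 KO mice had been protected from autoimmunity by WT splenocytes injected soon after birth, a treatment that the sources used here name for the CD25 KO mice and not for the WT mice. Splenic Tregs came from 4 CD25 WT reporter mice and 4 mice with floxed CD25, Foxp3-eGFP-Cre-ERT2 and a YFP reporter in Rosa26 (CD25 KO), both treated with tamoxifen, which switches the Cre on, at 7 to 10 weeks of age and sampled 10 to 14 days later. In both models Cre was driven by *Foxp3*, so only Foxp3-expressing cells should lose CD25, and in the thymus the 2 genotypes also carried different *Foxp3* reporters. Thymic and splenic libraries are numbered in separate series in their titles. In the count table, the names of all splenic libraries carry 1 date, and those of all thymic libraries carry a later one. What the date marks is not stated in the sources used here. Tissue, model, age, date and any separate handling cannot be told apart between them, while each WT and CD25 KO comparison lies within 1 tissue.

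The mitochondrial ribosome reads the few mRNAs that mitochondrial DNA still encodes, all of them for core subunits of the respiratory chain and ATP synthase. Its ribosomal RNAs are made inside the organelle, but its proteins are encoded in the nucleus, translated in the cytosol and imported. Some of these proteins descend from those of the bacterial ribosome, and others were added in the mitochondrial lineage. The large subunit (*Mrpl* genes, with *Mrps18a* and *Mrps30*) forms peptide bonds, and the small subunit (*Mrps* genes) decodes the mRNA. Activated T cells are known to increase their mitochondrial mass, and Tregs rely strongly on oxidative phosphorylation. Of the 78 members, 51 belong to the large subunit and 26 to the small subunit. The remaining one, *Mrps36*, was named as a ribosomal protein but is known today as a component of the 2-oxoglutarate dehydrogenase complex. By origin, 46 members have bacterial homologues and 32 do not.

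Some sequence features were more frequent at the starts of these genes than at those of all genes tested, a comparison of shares without a test. RefSeq promoter windows (GRCm38.p6), from 250 bases before to 50 bases after a start, were on hand for 69 of the 78 members, in 75 windows. The core of the site of NRF-1, a factor known to drive nuclear genes for mitochondria, was searched as GCGCATGCG on both strands. It stood in a window of 7 of the 69 members (10.1%), of 3.9% of the 11126 tested genes with a window, and of 1.95% of all 27025 genes in the table. CCGGAAG, the core bound by ETS factors such as GABP, stood in windows of 26 members (37.7%), of 2117 tested genes and of 9.93% of all genes. AAGATGGCG, a YY1 site that holds an ATG, stood in windows of 8 members (11.6%), 3.29% of tested genes and 1.64% of all genes. The other motifs were not more frequent in the members than in the tested genes. CACGTG, the E-box read by MYC and MAX, stood in 7.25% and 11.1% of them, CCAAT in 39.1% and 42.3%, and TATAAA in 7.25% and 9.05%. The windows of members and tested genes held a median of 21 and 19 CpG dinucleotides. Both strands were searched, and since the NRF-1 core is nearly its own reverse complement, hits on both strands can overlap. A start of another protein-coding gene on the opposite strand lay within 1000 bases for 33 of the 78 members (42.3%). The share was 16.3% of 12951 tested protein-coding genes. Both shares include pairs that point away from each other and pairs whose 5′ ends overlap. *Mrpl46* and *Mrps11* are a pair of the overlapping kind, with a gap of -412 bases between their starts.

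Upstream stretches of 100 bases are shown for 3 members that the results below turn on (*Mrpl12*, *Mrps6* and *Mrpl42*) and for 3 that carry the motifs (*Mrpl22*, *Mrpl9* and *Mrpl52*). They are read on the gene's strand, 5′ to 3′, end before the outermost annotated start, and have the searched motifs in capitals.
Mrpl12 (chr11:120484513-120484612, + strand): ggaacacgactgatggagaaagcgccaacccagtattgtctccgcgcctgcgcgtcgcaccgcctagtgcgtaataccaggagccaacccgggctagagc
Mrps6 (chr16:92058170-92058269, + strand): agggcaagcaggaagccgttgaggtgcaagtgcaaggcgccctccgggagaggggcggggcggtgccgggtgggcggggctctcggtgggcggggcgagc
Mrpl42 (chr10:95501950-95502049, - strand): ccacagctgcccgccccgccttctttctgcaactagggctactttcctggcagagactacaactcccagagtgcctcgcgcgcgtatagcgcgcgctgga
Mrpl22 (chr11:58171561-58171660, + strand): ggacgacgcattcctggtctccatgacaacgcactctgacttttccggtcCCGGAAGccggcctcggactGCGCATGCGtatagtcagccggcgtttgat
Mrpl9 (chr3:94443218-94443317, + strand): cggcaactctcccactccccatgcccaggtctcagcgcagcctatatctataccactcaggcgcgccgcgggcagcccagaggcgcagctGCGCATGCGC
Mrpl52 (chr14:54426809-54426908, + strand): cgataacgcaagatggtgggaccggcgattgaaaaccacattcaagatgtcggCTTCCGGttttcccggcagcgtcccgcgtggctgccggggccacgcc
The stretches of *Mrpl12*, *Mrps6* and *Mrpl42* held none of the 6 motifs, although the full window of *Mrpl42* holds CCAAT farther upstream and the YY1 site after the start. That of *Mrpl22* held an ETS core and an NRF-1 core, that of *Mrpl9* the NRF-1 core read on both strands, and that of *Mrpl52* an ETS core on the other strand. In the thymus, the median log2 fold change of CD25 KO over WT was -0.12 for the 25 tested members with an ETS core in the window and -0.14 for the 43 without one. For the 7 members with and the 61 without an NRF-1 core it was -0.08 and -0.13. It was -0.14 for the 8 members with a YY1 site, all of them below 0, and -0.12 for the 60 without. For the 5 members with an E-box, also all below 0, it was -0.23, and for the 63 without it was -0.12. With and without CCAAT it was -0.13 and -0.13, and with and without TATAAA -0.10 and -0.13. A motif is a match of letters and not a shown binding site.

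Thymic libraries held 17239774 to 23993674 counts and splenic libraries 25258341 to 32639570, and the members together took 0.146% to 0.161% of them. Levels are CPM (counts scaled to the same total in every library), on 1 TMM scaling of all 18 libraries. *Il2ra*, which encodes CD25, was at 524 to 682 CPM in the thymic WT and 95.9 to 280 CPM in the thymic CD25 KO mice, and at 488 to 539 CPM in the splenic WT and 168 to 208 CPM in the splenic CD25 KO mice. The paper likewise reports that *Il2ra* transcripts remained at a reduced level in CD25 KO Tregs. It states that they lacked exon 4, illustrated for peripheral Tregs, and takes this to show that functional CD25 was missing. Thymic CD25 KO mice 2 and 4 had the highest *Il2ra* of their group, at 280 and 234 CPM. The Treg markers *Foxp3*, *Il2ra*, *Ctla4*, *Ikzf2*, *Tnfrsf18*, *Cd4* and *Cd3e* were counted in every library, with a summed level of 3367 to 4272 CPM in the thymic WT, 3008 to 3623 CPM in the thymic CD25 KO, 3334 to 3544 CPM in the splenic WT and 3432 to 3808 CPM in the splenic CD25 KO mice. In the thymus, 6 of these 7 markers were below 0 in log2 fold change and 4 fell (*Il2ra*, *Foxp3*, *Tnfrsf18* and *Cd3e*). In the spleen, *Il2ra* and *Foxp3* fell, and *Ikzf2*, *Cd4* and *Cd3e* rose. Summed levels of 6 B cell markers (29.4 to 94.4 CPM), 6 myeloid markers (7.79 to 30.5 CPM) and 5 erythroid markers (4.98 to 44.6 CPM) were low throughout, and 6 markers of CD8 or immature thymocytes reached a sum of 172 CPM in a thymic library and stayed at 11.1 CPM or less in the spleen. In the spleen, *Cd74* of the B cell list and *Lyz2* of the myeloid list rose in CD25 KO mice, with log2 fold changes of 0.40 and 1.03. Of the markers tested there, 1 of 4 B cell and 3 of 5 myeloid markers were below 0. The B cell sum was 66.3 to 80.5 CPM in the splenic WT and 87.5 to 94.4 CPM in the splenic CD25 KO mice. The part of other cells in the members' values was not tested. In sorted bulk RNA, fewer cells of a kind and less RNA per cell cannot be told apart.

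In the thymus, the members were lower as a group in CD25 KO than in WT Tregs, by a small amount in most genes. Their summed level was 1509, 1614, 1606, 1478 and 1605 CPM in WT mice 1 to 5, and 1429, 1409, 1394, 1434 and 1467 CPM in CD25 KO mice 1 to 5. The highest CD25 KO value was thus under the lowest WT value. The median log2 fold change was -0.13 over the 77 members that passed the filter on low counts, against -0.0022 over all 16986 genes tested, and 66 of the 77 (85.7%) were below 0, against 50.3% of all genes. The mean of each member's CD25 KO level, as a percentage of its WT mean, ranged from 72.8% to 114%, with a median of 90.4%. No member differed by more than 0.5 on the log2 scale.

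**Figure D1:**
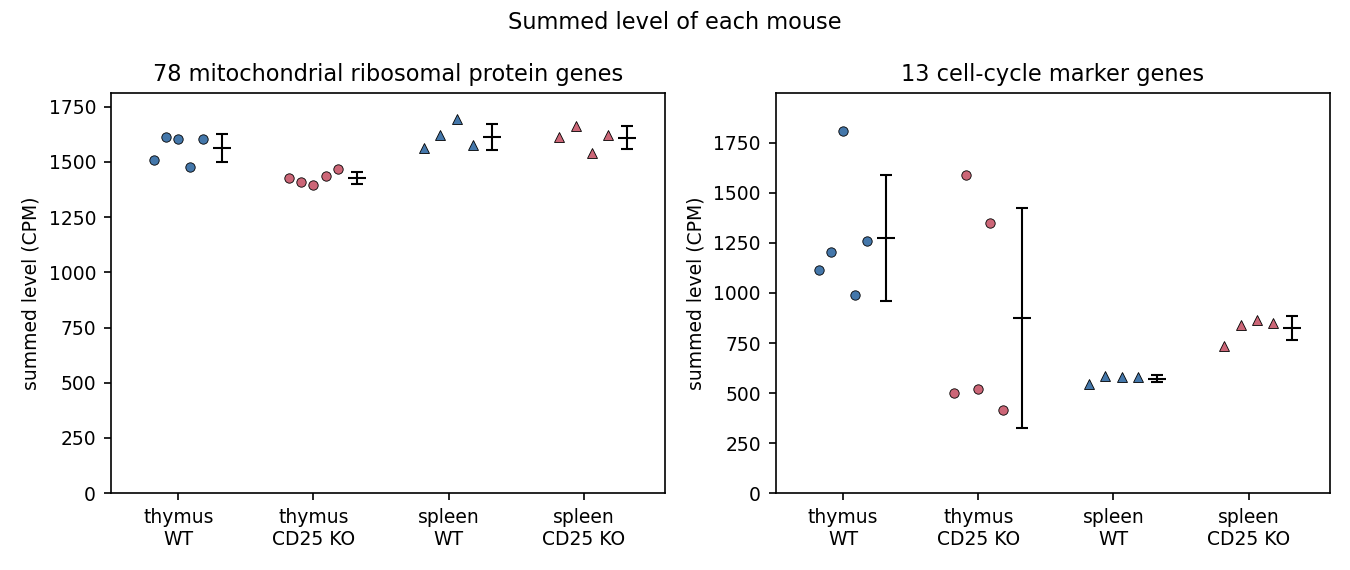
Summed level in CPM of the 78 mitochondrial ribosomal protein genes (left) and of 13 cell-cycle marker genes (right) in each mouse, with the mean and SD of each group beside the points; both axes start at 0. For the members, the 5 thymic CD25 KO mice (1394 to 1467 CPM) sit below the 5 thymic WT mice (1478 to 1614 CPM), and the splenic groups overlap.

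Few members passed the test one by one. At an FDR (the Benjamini-Hochberg adjusted p of edgeR's quasi-likelihood test over all genes) under 0.01, 2 of 77 members were lower in the thymic CD25 KO mice, *Mrpl12* and *Mrpl19*, and none was higher, while 2.99% of all genes were called lower and 3.17% higher (6.16% in all). At FDR < 0.05, 12 members were lower and 1 was higher, against 10.9% and 12.3% (23.3% in all) of all genes. At an unadjusted p < 0.05 the members numbered 21 lower and 1 higher, against 18.5% and 19.4%. The members called lower were 2 of 77 and 12 of 77 at the 2 FDR thresholds, shares near the background. The group differed from all genes in its median and in how few of its genes lay on the higher side. This was not particular to the members. The cytosolic ribosomal protein and nuclear respiratory chain genes, described below, had thymic medians of -0.14 and -0.16. The ranges of the genotypes were separate for 11 members on the lower side and for 1 on the higher side, against 9.17% and 7.2% of all genes. DESeq2 called 7 members lower and none higher, but the share of all genes that it called is not given here, so this count has no background beside it.

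**Figure D2:**
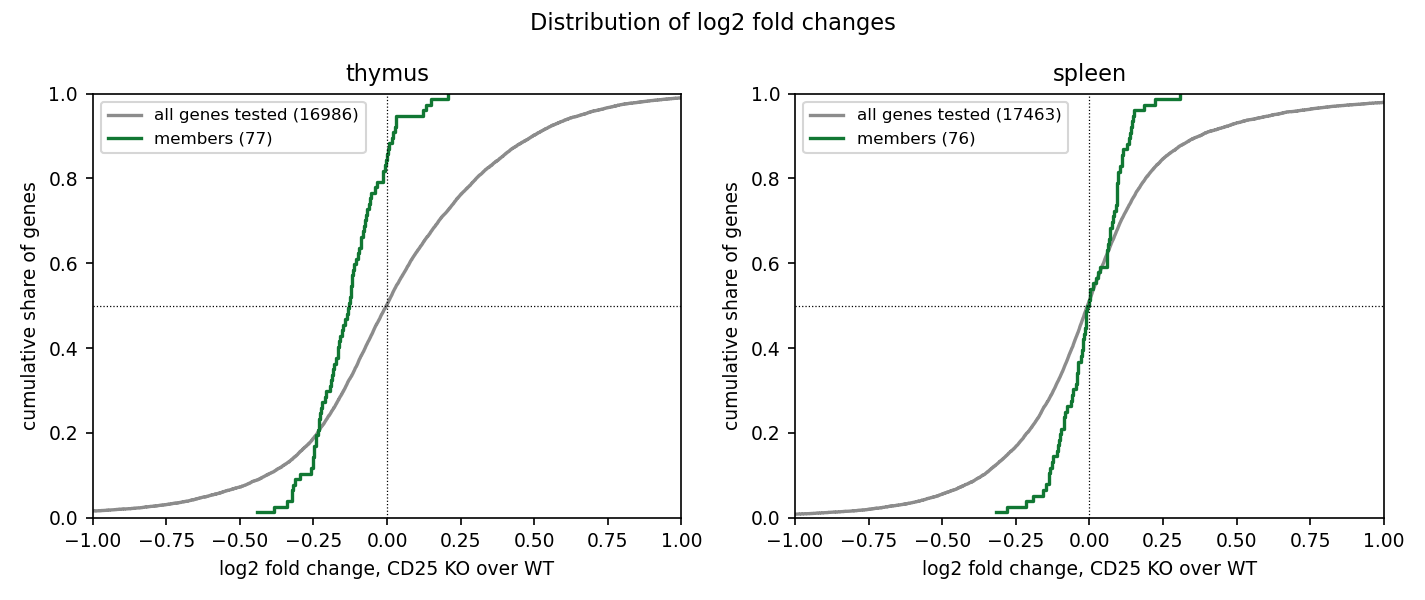
Cumulative share of genes (vertical axis) against the log2 fold change of CD25 KO over WT (horizontal axis, drawn from -1 to 1) in the thymus (left) and the spleen (right), for the members in green and all genes tested in grey. In the thymus the members' curve is shifted to the left, with a median of -0.13, and in the spleen it crosses the middle at -0.0051, close to all genes, and is steeper than theirs.

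*Mrpl12* encodes the homologue of the bacterial stalk protein L7/L12, which recruits translation factors to the large subunit. The gene lies at chr11:120484613-120489065 on GRCm38. It was at 19.2, 17.6, 20.3, 17.97 and 20.6 CPM in the thymic WT and 12.0, 15.3, 13.8, 15.6 and 12.97 CPM in the thymic CD25 KO mice. All CD25 KO mice were below all WT mice, and the level fell to 72.8% of WT (log2 fold change -0.44 ± 0.09 SE, FDR = 0.00847). In the spleen it was at 19.4, 17.7, 22.4 and 21.8 CPM in WT and 20.1, 21.7, 19.4 and 18.6 CPM in CD25 KO mice, with overlapping groups (-0.02 ± 0.09, 95% interval -0.21 to 0.16, FDR = 0.888).

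*Mrpl19* encodes the homologue of bacterial L19 and lies at chr6:81957851-81965958. It was at 20.9, 21.8, 22.5, 20.3 and 23.1 CPM in the thymic WT and 17.7, 18.3, 15.5, 17.4 and 17.1 CPM in the thymic CD25 KO mice. Again the groups did not overlap, and the level fell to 79.1% of WT (-0.32 ± 0.07, FDR = 0.00911). In the spleen the fold change was -0.11 ± 0.07 (FDR = 0.322). Exons of *Gcfc2* on the other strand cover 36.0% of the exonic bases of *Mrpl19*, and *Gcfc2* itself had a thymic log2 fold change of 0.01 (FDR = 0.924).

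Both calls were close to the threshold. *Mrpl19* missed it whichever of the 10 thymic mice was left out (FDR 0.0104 to 0.0319), and *Mrpl12* passed it only without CD25 KO mouse 2 or without CD25 KO mouse 4 (FDR 0.00736 to 0.0261 over the 10 fits). With the trend of counts on GC content taken out, neither was called, and 3 others were, namely *Mrpl42* (FDR = 0.00333), *Mrpl51* (FDR = 0.00994) and *Mrpl15*, which is named here after its value was seen. *Mrpl12* then moved to -0.30 (FDR = 0.0491) and *Mrpl19* to -0.32 (FDR = 0.0102). The median over the members stayed between -0.15 and -0.11 when any 1 mouse was left out.

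Cell-cycle genes moved in the same direction in the thymus. All 13 listed cell-cycle markers had a log2 fold change below 0 there (median -0.65), and none was called. Their summed level was 988 to 1809 CPM in WT mice and 499, 1587, 520, 1347 and 413 CPM in CD25 KO mice 1 to 5, so CD25 KO mice 2 and 4 lay within the WT range and the other 3 below it. In the same 2 mice the members summed to 1409 and 1434 CPM, below the lowest WT mouse. Without mice 2 and 4, the members' median log2 fold change was -0.15. These 2 mice also had the highest *Il2ra* of their group (280 and 234 CPM). The part of cycling in the members' values was not tested. In the spleen, 9 of the 13 markers rose (median 0.83), with 544 to 587 CPM in WT and 737 to 866 CPM in CD25 KO mice, and the members' median was near 0.

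In the spleen, the members did not shift as a group. Their summed level was 1563, 1621, 1693 and 1577 CPM in WT mice 1 to 4 and 1611, 1665, 1539 and 1621 CPM in CD25 KO mice 1 to 4, so the groups overlapped. The median log2 fold change was -0.0051 over 76 members tested, against -0.0065 over all 17463 genes, and 39 of the 76 were below 0, against 51.2% of all genes. No member was called by edgeR, where 3.55% of all genes were called lower and 5.9% higher (9.45% in all). At an unadjusted p < 0.05, 6 members were lower and 3 higher (13.6% and 16.4% of all genes). DESeq2 called 1 lower and 1 higher, again with no share over all genes given. Groups did not overlap for 4 members that were lower and 3 that were higher, against 9.19% and 11.2% of all genes. The 95% intervals of 75 of the 76 members lay within -0.5 to 0.5, so changes of that size were outside the interval for nearly all of them.

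At FDR < 0.05, 2 members were lower and 2 higher in the spleen, against 7.03% and 10.2% of all genes (17.2% in all). *Mrpl23*, which like its bacterial homologue lies at the exit of the peptide tunnel, was at 14.0, 12.9, 14.0 and 12.6 CPM in WT and 11.8, 10.97, 9.11 and 10.9 CPM in CD25 KO mice, with no overlap (-0.32 ± 0.10, FDR = 0.0317). *Mrpl18* was at 23.8, 26.9, 27.5 and 24.3 CPM in WT and 28.8, 32.04, 28.7 and 30.02 CPM in CD25 KO mice, also with no overlap, but higher (0.22 ± 0.07, FDR = 0.034). The remaining members were *Mrps10*, a small subunit protein chosen here after its value was seen (-0.28 ± 0.07, FDR = 0.016), and *Mrps6*, which is described next. Without splenic CD25 KO mouse 1, *Mrps10* and *Mrps6* were called.

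The effect of CD25 loss was then compared between the tissues, as the splenic minus the thymic log2 fold change in a single fit of all 18 mice. It was above 0 for most members, with a median of 0.13 over the 76 members counted in both tissues, against -0.0065 over all genes. Of 77 members tested, 3 were called higher and none lower, against 4.5% and 2.49% (6.98% in all) of all genes. At FDR < 0.05 the numbers were 8 higher and 0 lower, against 9.82% and 7.03% (16.9% in all). The Treg and T cell markers *Cd3e*, *Ctla4*, *Tnfrsf18* and *Cd4* were also called higher in this difference, by 0.58 to 0.69 on the log2 scale, and their part in the members' values was not tested. Since tissue, model, age and the date in the library names cannot be told apart, this difference is between 2 experiments as much as between 2 organs.

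*Mrps6* had the largest such difference. It encodes the homologue of bacterial S6, a protein of the small subunit. In the thymus it was at 22.5, 22.5, 21.96, 18.9 and 19.3 CPM in WT and 17.4, 17.1, 13.6, 14.7 and 16.97 CPM in CD25 KO mice. In the spleen it was at 15.3, 17.1, 15.6 and 16.1 CPM in WT and 18.2, 21.4, 20.3 and 19.4 CPM in CD25 KO mice. The groups did not overlap in either tissue, with CD25 KO mice lower in the thymus and higher in the spleen. Neither tissue passed the threshold on its own (-0.38 ± 0.09, FDR = 0.0125, and 0.31 ± 0.08, FDR = 0.0109), while the difference did (0.71 ± 0.12, FDR = 0.000561). This call held in all 18 fits that left out 1 mouse (FDR 0.000476 to 0.00253). The gene (chr16:92058270-92112227) shares 19.9% of its exonic bases with 2 genes on the same strand, one of them *Slc5a3*, a myo-inositol transporter. *Slc5a3* had a log2 fold change of 0.01 (FDR = 0.964) in the thymus and 0.26 (FDR = 0.0227) in the spleen.

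*Mrpl42* and *Mrpl51* are large subunit proteins without bacterial homologues. *Mrpl42* was at 25.01, 25.8, 27.2, 22.4 and 25.5 CPM in the thymic WT and 22.3, 19.04, 18.7, 18.7 and 20.7 CPM in the thymic CD25 KO mice, and at 21.9 to 23.4 CPM in the splenic WT and 23.1 to 24.5 CPM in the splenic CD25 KO mice. *Mrpl51* was at 19.97, 21.3, 24.1, 18.3 and 21.8 CPM and at 14.9, 16.9, 15.7, 16.9 and 17.96 CPM in the thymus, and at 22.2 to 23.8 CPM and 22.9 to 26.6 CPM in the spleen. Both were thus separated between the genotypes in the thymus, each by a margin of under 1 CPM, and overlapped in the spleen. The difference between tissues was 0.41 ± 0.10 for *Mrpl42* (FDR = 0.00609) and 0.45 ± 0.11 for *Mrpl51* (FDR = 0.00909). Leaving out 1 mouse ended the call in 11 of 18 fits for *Mrpl42* (FDR up to 0.0165) and in 14 of 18 for *Mrpl51* (FDR up to 0.0287), and the value stayed above 0 in each.

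**Figure D3:**
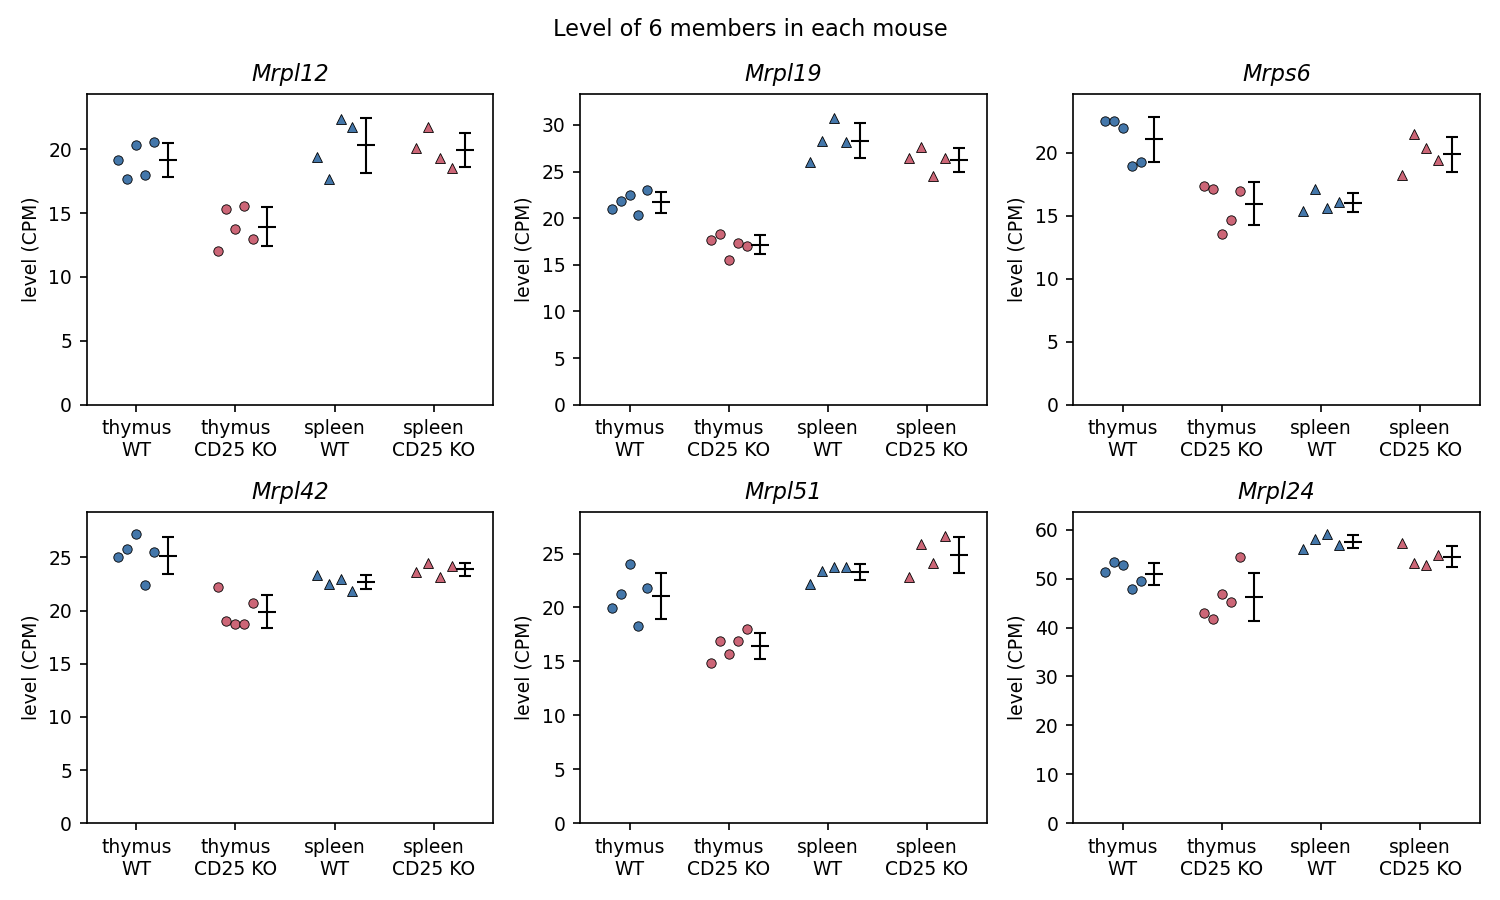
Level in CPM of 6 members in each mouse, with the mean and SD of each group beside its points; circles are thymic and triangles splenic mice, blue is WT and red CD25 KO. *Mrpl12*, *Mrpl19*, *Mrps6*, *Mrpl42* and *Mrpl51* are lower in every thymic CD25 KO mouse than in any thymic WT mouse, *Mrps6* is higher in every splenic CD25 KO mouse, and *Mrpl24*, which has high counts and was not called, overlaps in both tissues.

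A member's change in one tissue told little of its change in the other. Over the 76 members tested in both, Pearson's r between the thymic and splenic log2 fold changes was -0.005 (Spearman's rho = 0.039), a description across genes that share the same libraries within each tissue. Both values were below 0 for 35 members, 30 were below 0 in the thymus and above 0 in the spleen, 7 were above 0 in both, and 4 were above 0 in the thymus alone. *Mrps18b* was among those on the lower side in both tissues, at -0.31 ± 0.13 (FDR = 0.101) and -0.22 ± 0.09 (FDR = 0.137).

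**Figure D4:**
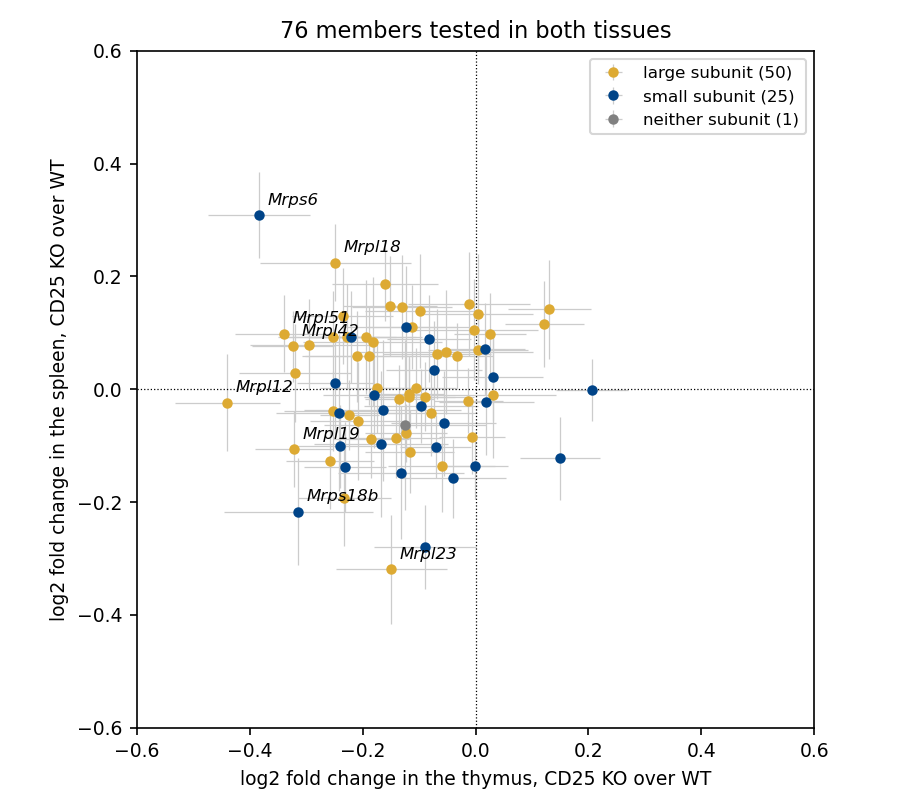
Log2 fold change of CD25 KO over WT in the thymus (horizontal) against the spleen (vertical) for the 76 members tested in both tissues, with bars of 1 SE, colored by subunit. The points lie mostly left of 0 and are spread evenly above and below it, with *Mrps6* at the upper left (-0.38 and 0.31) and *Mrpl12* farthest to the left (-0.44).

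Both subunits and both origins took part in the thymic shift. The median log2 fold change was -0.14 over 50 tested large subunit members, of which 44 were below 0, and -0.11 over 26 small subunit members, of which 21 were below 0. It was -0.17 over 46 members with bacterial homologues and -0.12 over 31 without. In the spleen, the medians were 0.06 for the large and -0.04 for the small subunit, and -0.0051 and -0.0060 by origin. No test was made between these classes. On the higher side in the thymus, the only member with FDR < 0.05 was *Mrps9*, homologue of bacterial S9, chosen here after its value was seen. It was at 38.8, 35.5, 39.5, 36.6 and 36.5 CPM in WT and 42.01, 44.1, 39.9, 40.04 and 47.2 CPM in CD25 KO mice, just short of overlap (0.21 ± 0.06, FDR = 0.0371).

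*Mrps18a*, *Mrps18b* and *Mrps18c* are paralogues related to bacterial S18. *Mrps18c* takes the place of S18 and is counted above among the members with bacterial homologues, while the protein of *Mrps18a* sits in the large subunit. *Mrps18a* was at 17.5 to 20.96 CPM in the thymic WT and 16.7 to 20.4 CPM in the thymic CD25 KO mice (-0.12 ± 0.08, FDR = 0.305). *Mrps18c* was at 10.47 to 13.7 and 9.10 to 11.9 CPM (-0.12 ± 0.11, FDR = 0.44). *Mrps18b* was at 5.23 to 7.59 and 4.60 to 6.25 CPM, the lowest of the 3 genes in CPM. In the spleen the 3 genes had log2 fold changes of -0.01 ± 0.07, -0.22 ± 0.09 and 0.11 ± 0.11, in the order a, b and c. None was called, and the genotypes overlapped for all of them in the thymus and the spleen.

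Among the members with the highest CPM that were not called, *Mrpl24* was at 47.8 to 53.3 CPM in the thymic WT and 41.8 to 54.5 CPM in the thymic CD25 KO mice (-0.12 ± 0.07, 95% interval -0.28 to 0.03), with a splenic value of -0.08 ± 0.05 (-0.19 to 0.03). *Mrpl30* was at 45.8 to 52.6 and 40.3 to 48.9 CPM in the thymus, with a log2 fold change of -0.19 ± 0.07 (FDR = 0.0641). *Mrpl9* was at 37.9 to 45.9 and 38.8 to 42.9 CPM in the thymus (-0.03 ± 0.06, FDR = 0.735) and at 41.2 to 43.5 and 41.5 to 47.2 CPM in the spleen (0.06 ± 0.06, FDR = 0.541). *Mrpl33* had a splenic log2 fold change of -0.02 ± 0.06 (FDR = 0.852), with 40.7 to 43.6 CPM in WT and 38.3 to 43.1 CPM in CD25 KO mice.

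Levels between members were compared per length, as TPM, in which counts are divided by the exonic length of each gene and scaled to the same total in every library. Although ribosomal subunits hold 1 copy of most of these proteins, the mean levels over the 18 mice ran from 0.687 to 68.7 TPM, with a median of 18.1 TPM, and 53 of the 78 members lay between 10 and 40 TPM. The medians were 22.1 TPM for the large and 14.3 TPM for the small subunit. *Mrps21* was the highest member, at 66.0 ± 3.9 TPM in the thymic WT (SD, n = 5), 67.8 ± 4.8 in the thymic CD25 KO (n = 5), 67.9 ± 6.4 in the splenic WT (n = 4) and 74.2 ± 8.1 in the splenic CD25 KO mice (n = 4). *Mrpl52* came next, at 53.0 ± 3.2 and 53.6 ± 3.7 TPM in the thymus and 74.8 ± 5.3 and 76.5 ± 4.3 TPM in the spleen. It was below *Mrps21* by more than either SD in the thymus, above it by slightly more than either SD in the splenic WT mice, and within the SD of it in the splenic CD25 KO mice.

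*Mrpl24* was at 56.9 ± 1.0, 56.7 ± 3.2, 62.3 ± 1.1 and 60.4 ± 4.9 TPM in the same order of groups. *Mrpl18* (51.0 ± 6.8, 47.0 ± 10.7, 44.7 ± 2.4 and 53.4 ± 2.7 TPM) and *Mrpl54* (46.3 ± 3.6, 48.4 ± 8.2, 48.9 ± 4.9 and 52.3 ± 5.2 TPM) differed from each other by less than the larger of their SDs in each of the 4 groups. At the low end stood *Mrpl23* (5.45 to 6.67 TPM as group means), *Mrpl48* (4.73 to 5.45 TPM) and *Mrpl53*. The order was nearly the same in the tissues, with Pearson's r = 0.978 (Spearman's rho = 0.973) between the log2 TPM of the WT thymus and the WT spleen over 77 members, a description across genes that share library preparation and length.

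**Figure D5:**
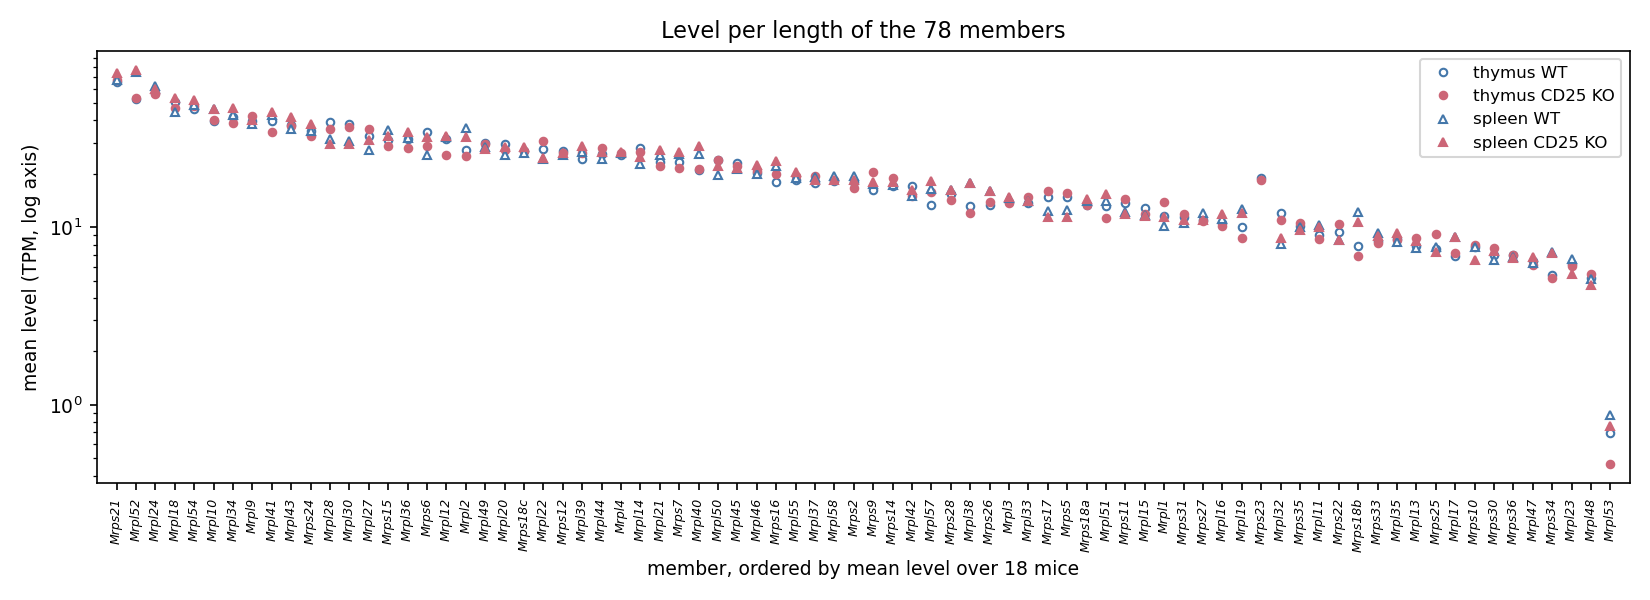
Mean TPM (log axis) of each of the 78 members in the 4 groups, ordered by the mean over 18 mice; open symbols are WT, filled symbols CD25 KO, circles thymic and triangles splenic. Most members lie between 10 and 40 TPM, *Mrps21* is at the top and *Mrpl53* far below the others, and *Mrps23* has no splenic symbols because it is listed at 0 there.

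Both *Mrps23* and *Mrpl53* failed the filter in at least 1 tissue. *Mrps23*, a small subunit protein without a bacterial homologue (chr11:88204388-88211507), had 221, 312, 275, 203 and 302 counts in the thymic WT and 207, 206, 199, 252 and 181 counts in the thymic CD25 KO mice (-0.17 ± 0.11, FDR = 0.283). It was listed at 0 in all 8 splenic libraries. In all, 41 protein-coding genes had at least 50 counts in every thymic library and 0 in every splenic one, and no gene showed the reverse. They include genes that every cell uses, such as the splicing factor gene *Srsf1*, and *Srsf1* and *Vezf1* lie within 200 kb of *Mrps23*. Of the 41, 34 lay within 500 kb of another of them. The zeros of *Mrps23* are therefore given as listed, with no fold against the thymus. Whether the splenic and thymic libraries were counted on the same annotation was not tested, which limits every comparison of levels between the tissues, the order by TPM included. *Mrpl53* had 0 to 7 counts per thymic and 1 to 11 per splenic library and was not tested in any tissue. Exons of *Ccdc142os* and *Gm42688* cover 88.0% of its exonic bases.

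Shared exons touch other members too. Of the 78 members, 45 share no exonic base with another annotated gene, 18 share over 10% and 3 share over 50% (*Mrpl53*, *Mrps34* and *Mrps25*). Whether the counting used strand is not given in the sources used here, and reads in shared bases could be dropped or assigned to the partner.

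Further subunits of the mitochondrial ribosome carry other names, and 5 of them were matched. *Dap3*, *Gadd45gip1*, *Ptcd3*, *Aurkaip1* and *Chchd1* had a median log2 fold change of -0.15 in the thymus, with 4 of 5 below 0, and -0.02 in the spleen, and none was called in any tissue. Of 12 translation factors of the mitochondrion, *Mtfmt*, which formylates the initiator tRNA, and *Guf1*, an elongation factor, rose in the thymic CD25 KO mice (0.50 ± 0.06, FDR = 0.000813, and 0.41 ± 0.08, FDR = 0.00716), and none was called in the spleen. Of 26 genes for ribosome assembly and rRNA modification, *Noa1*, a GTPase of the small subunit, fell in the thymus (-0.42 ± 0.09, FDR = 0.00828). In the spleen *Ddx28*, a helicase of large subunit assembly, rose (0.53 ± 0.08, FDR = 0.00034), and *Mettl17*, a small subunit assembly factor, fell (-0.35 ± 0.08, FDR = 0.00449). Of 19 genes for mitochondrial DNA and RNA upkeep, none was called in the thymus, and *Twnk*, the replicative helicase, fell in the spleen (-0.37 ± 0.08, FDR = 0.00295). Exons of *Twnk* on the other strand cover 33.4% of the exonic bases of *Mrpl43*, a member named here for that overlap, which had a splenic log2 fold change of 0.19 (FDR = 0.0614).

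Of 9 tested regulators known for mitochondrial biogenesis, 2 fell in the thymus, and 2 fell and 1 rose in the spleen. *Myc* was at 117 to 134 CPM in the thymic WT and 48.0 to 78.3 CPM in the thymic CD25 KO mice, and at 95.9 to 112 and 46.8 to 55.9 CPM in the spleen. It fell in both (-0.96 ± 0.11, FDR = 0.000364, and -1.02 ± 0.07, FDR = 1.19e-07). *Pprc1*, a coactivator that works with NRF-1, fell in both as well (-0.55 ± 0.09, FDR = 0.0027, and -0.41 ± 0.06, FDR = 0.000112). *Gabpb1*, a subunit of the ETS factor GABP, rose in the spleen (0.21 ± 0.05, FDR = 0.00953). *Nrf1* itself had log2 fold changes of 0.03 ± 0.05 and 0.06 ± 0.06. The members had a lower median in the thymus and not in the spleen, and *Myc* and *Pprc1* fell in both. A link between these regulators and the members was not tested, and tissue, model, age and the date in the library names cannot be told apart.

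The mitochondrial ribosome makes partner subunits for the nuclear genes of the respiratory chain, which were not tested against the members. These genes were taken by the start of their symbols, which also matches assembly factors (*Ndufaf* symbols) and isoforms such as *Cox6b2*. Of 90 tested in the thymus, 6 fell, none rose, 78 were below 0 and the median was -0.16, with 52 lower at an unadjusted p < 0.05. Those with the largest changes were *Ndufab1* (-0.51 ± 0.10, FDR = 0.00476), *Atp5g1* (-0.48 ± 0.08, FDR = 0.00342) and *Atp5b* (-0.34 ± 0.06, FDR = 0.00424). Of 87 tested in the spleen, 1 fell (*Cox6b2*, -1.08 ± 0.26, FDR = 0.00901), 25 were below 0 and the median was 0.04, with 2 lower and 15 higher at an unadjusted p < 0.05. Genes for cytosolic ribosomal proteins were taken by symbol, a pattern that also matches genes named as like them, such as *Rpl7l1*. Of these, 2 of 81 were lower in the thymus (*Rpl7l1* and *Rpl35a*, median of the 81 -0.14). In the spleen, where no member was called, 31 of 81 were lower (median -0.25). In the thymus 78 of the 81 were below 0, with 49 lower and 1 higher at an unadjusted p < 0.05. Of the mRNAs and rRNAs of mitochondrial DNA, 10 of 15 were tested, and *mt-Nd3* was called higher in the thymus, being listed at 0 in the 5 WT mice with 21 to 84 counts in the CD25 KO mice. None was called in the spleen. The median of the 10 was 0.19 in the thymus, with 2 below 0, and 0.34 in the spleen, with 0 below 0.

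Base composition moved with the thymic fold changes. Across 16940 genes, higher exonic GC content went with a lower thymic log2 fold change (Spearman's rho = -0.40, a description across genes of the same libraries), and over the 77 members rho was -0.34. The members had a median GC content of 49.7%, against 49.0% for all genes. Measured from the trend over all genes, the members' median was -0.11, and 65 of 77 lay below it. With the GC trend taken out of the counts before the fit, the median over the members was -0.09, against 0.02 over all genes. In the spleen rho was -0.17 over 17420 genes, and the members' median was 0.04 above the trend.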

How the data were processed

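Total RNA of FACS-sorted Tregs was made into ribosomal RNA-depleted libraries (KAPA RNA HyperPrep with RiboErase) and sequenced paired-end. Per the submitters' processing notes and the paper's methods, the authors aligned reads to GRCm38 with STAR (2.5.0b), counted them per gene of GENCODE M13 with featureCounts (1.5.0) and deposited raw counts without normalization. Here, symbols (50376 of 50600 identifiers), coordinates, GC content and exonic length came from GENCODE M21, and promoters from RefSeq.

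Genes were kept by filterByExpr, scaled by TMM and tested, separately for thymus and spleen, with the quasi-likelihood test of edgeR 4.0.16 (R 4.3.3) with Benjamini-Hochberg adjustment over all genes. FDR < 0.01, the study's threshold, makes a call, and the difference between tissues was tested in 1 fit of the 4 groups. DESeq2 1.42.0, the study's tool, was an alternative. SEs come from the fold change and the F statistic. CPM ranges use 1 scaling of 18 libraries. A floor of 3 counts corresponds to 0.163 CPM or less and covers counting error only. The procedure was tested on simulated counts.

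Members and gene lists were chosen with earlier results of these data known. Members to be named were set by a rule: those called (up to 6 per tissue and direction, and for the difference), the 5 highest and 3 lowest per length, those failing the filter, the *Mrps18* paralogues and the 3 with most counts not called per tissue, plus *Il2ra*, *Myc* and up to 3 called genes per list. Others are marked. The older names *Ict1* and *Mrp63*, which stand for members, and *Mtrfr* were not matched.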

Additional observations from a re-analysis of the deposited data

Results flagged for a closer look

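Within groups of 4 or 5 mice, values of each named member and the mean level over all members were looked at. Of these 82 sets of values, 5 had a mouse far from the others by Dixon's criterion, where chance gives about 1 in 20. One thymic CD25 KO mouse had 20.4 CPM of *Mrps18a*, with the others at 16.7 to 17.5 CPM. One splenic WT mouse had 30.0 CPM of *Mrpl52*, with the others at 35.2 to 35.5 CPM. For *Mrpl53*, 1 splenic WT mouse was at 0.0394 CPM (1 count), below the floor of 3 counts. One splenic CD25 KO mouse had 14.0 CPM of *Mrpl48*, with the others at 15.8 CPM or more, and 1 had 33.5 CPM of *Mrpl30*, with the others at 39.1 to 40.1 CPM.

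The effect of CD25 loss differed between the experiments in the spleen and the thymus by the test of the difference for *Mrpl42* (0.41 on the log2 scale), *Mrpl51* (0.45) and *Mrps6* (0.71). Tissue, model, age and the date in the library names cannot be told apart in these values.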

How the results depend on the processing

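The counts of called members moved with the processing, and the medians less so. In the thymus, 2 members were called, against 13 at FDR < 0.05, 7 with DESeq2, 8 with all 18 samples in 1 fit, and 1 each with RLE factors, upper-quartile factors, no filter and without *Gm26917*, the gene with the most counts. The GC offset called 3 members and the GC and length offset 2, and neither set shared a member with the 2 reported. In the spleen, 0 became 4 at FDR < 0.05, 1 with upper-quartile factors, 2 with DESeq2, 1 with the GC offset and 2 with the GC and length offset. For the difference between tissues, 3 became 8 at FDR < 0.05, 1 with upper-quartile factors, 1 with no filter and 5 without thymic CD25 KO mice 2 and 4. Leaving out 1 mouse gave 0 to 1 called in the thymus, 0 to 2 in the spleen and 1 to 3 for the difference, while the thymic median stayed at -0.153 to -0.106 and the splenic one at -0.0203 to 0.0344. The share of all genes called is not given for these other fits, so their counts stand without a background. Apart from settings that use fewer mice, the cause of the movement was not tested.

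The thymic sample titles carry the numbers 1 to 5 in both genotypes. Only 1 of 5 same-numbered pairs had a correlation of deviations over 0.1 (range -0.18 to 0.106), and 2 of 5 WT and 1 of 5 CD25 KO mice correlated best with their own number, so the numbers were not taken as pairs. With the replicate block 0 members were called, and 0 with the replicate block and the GC offset. The splenic titles share no numbers between genotypes, so no such fit was made there.

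Non-overlapping members in the thymus were 11 lower and 1 higher with TMM and with RLE factors, and 8 lower and 2 higher with upper-quartile factors. In the spleen, 4 were lower and 3 higher with TMM and with upper-quartile factors, and 2 lower and 4 higher with RLE factors. The share of all genes is given above for TMM alone, so the counts with RLE and upper-quartile factors stand without a background. These 2 scalings were chosen for this count after seeing the data. Of 805 values of named members under other settings, 33 had the other sign, each of a member not called in either fit.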
